A study of Solanum lycopersicum with 4 samples.

Results

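The Argonaute and Dicer-like genes of tomato were examined for their transcript levels in the presence of excess miR156. The rule named 10 gene IDs, 7 Argonautes and 3 Dicer-like genes. Of these, 9 matched a transcript among the 33976 quantified, while the ID listed as DCL1 (Solyc10g005130) matched none and is not analysed here. The measured members were AGO1a (Solyc06g072300), AGO1b (Solyc03g098280), AGO4a (Solyc01g008960), AGO4b (Solyc06g073540), AGO7 (Solyc01g010970), a pair listed as AGO10 types (Solyc09g082830 and Solyc12g006790), DCL3 (Solyc08g067210) and DCL4 (Solyc07g005030). For 7 of the 9, a tomato RefSeq gene of the same name lay on the chromosome given by the ID and at a like place among its genes. For Solyc09g082830 no such name was found, and for DCL3 the place differed by slightly more than the tolerance of 0.03 of the chromosome's gene order (0.0307), so these names are less certain than the IDs.

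The libraries came from closed flower buds together with floral apices of tomato. There were 2 libraries of the genotype MT, a label commonly short for the dwarf tomato Micro-Tom, and 2 of 156OE, which is MT overexpressing miR156. The labels give neither the promoter of the transgene nor the number of transgenic lines or plants, and no plant age or treatment. Whether the replicates are separate plants is not stated either, and the p-values therefore reflect the spread of these samples, which may be technical. Assigned reads numbered 11203505 and 9369713 in MT and 8440384 and 1685657 in 156OE, so 156OE replicate 2 was the shallowest. The 156OE pair also varied more than the MT pair, with a common dispersion of 0.0883 against 0.00664. A pair of IDs recalled as SBP-box genes, the family that miR156 targets, was lower in 156OE, though their names could not be checked. Solyc03g114850 had 147 and 169 TPM (transcripts per 1000000, a level scaled by transcript length) in MT and 48.1 and 37.6 TPM in 156OE, and Solyc10g078700 had 71.2 and 77.2 TPM against 23.2 and 15.0 TPM.

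Small RNAs of plants are cut from longer double-stranded or hairpin precursors by Dicer-like enzymes and act inside Argonaute proteins, which they guide to matching RNA. In Arabidopsis, DCL1 releases microRNAs, most of which, miR156 among them, act in AGO1. DCL4 makes trans-acting small interfering RNAs, and DCL3 makes the small interfering RNAs that AGO4-type proteins use to direct DNA methylation. AGO1 is itself kept in check by a microRNA, miR168. AGO10 is known in Arabidopsis meristems for holding miR165 and miR166, and AGO7 for holding miR390, which starts the trans-acting small RNAs against auxin response factors.

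AGO4a, the more abundant AGO4-type gene, and AGO1b led the Argonautes in every library. In MT the levels of AGO4a were 471 and 514 TPM, placing its transcript at the 99.1 and 99.2 percentile of all transcripts. AGO1b stood at 361 and 371 TPM, AGO4b at 217 and 236 TPM, Solyc09g082830 at 158 and 177 TPM and AGO1a at 136.0 and 136.4 TPM. The MT libraries of these 5 genes did not overlap between neighbours in that order. Far lower came Solyc12g006790, the other AGO10 type, at 32.4 and 35.0 TPM, and DCL3 at 19.8 and 22.01 TPM. AGO7, at 14.5 and 15.1 TPM, and DCL4, at 14.6 and 14.0 TPM, overlapped and ended the order. In 156OE the order of the mean levels was the same, but AGO4b (182 and 137 TPM) overlapped Solyc09g082830 (137 and 104 TPM), Solyc09g082830 overlapped AGO1a (110 and 102 TPM), DCL3 (13.7 and 12.3 TPM) overlapped AGO7 (13.2 and 9.09 TPM), and AGO7 overlapped DCL4 (9.26 and 7.96 TPM).

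**Figure D1:**
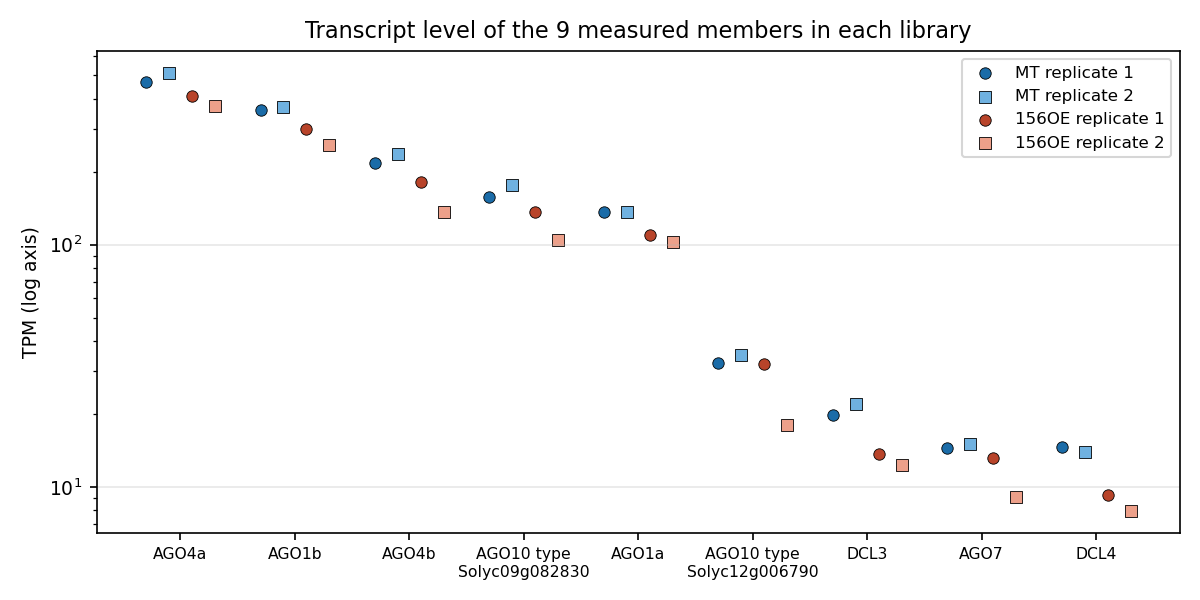
Level of the 9 measured members in TPM (log axis), 1 point per library, with the MT libraries in blue and the 156OE libraries in red. Members are ordered by their MT mean, from AGO4a (471 and 514 TPM) to DCL4 (14.6 and 14.0 TPM). Both 156OE points lie below both MT points for all 9 on this scale, which is not scaled by TMM. The same held for 38.5% of all tested genes.

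No member passed the test between genotypes. In edgeR's quasi-likelihood test, adjusted by the Benjamini-Hochberg method over all 18385 genes tested, 0 of the 9 members had an adjusted p under 0.05, and of all genes 0% passed as lower and 0.00544% as higher in 156OE. DESeq2 called 0 members as well, against 0.294% of all genes called lower, and limma on log2(TPM + 1) called 0. At an unadjusted p under 0.05, 2 members were lower in edgeR, DCL3 and DCL4, against 5.11% of all genes. The log2 change (156OE minus MT) was below 0 for all 9 members, against 48.5% of all genes. It had a median of -0.24 over the members and 0.01 over all genes, and ran from -0.55 for DCL4 to -0.14 for AGO4a. All 9 passed the filter on low counts. In bulk tissue, fewer cells of a type and less RNA per cell cannot be told apart.

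Both 156OE values were lower than either MT value for 8 of the 9 members in CPM (counts per 1000000 assigned reads, scaled between libraries by TMM), the exception being Solyc12g006790. The same was true of 23.8% of all tested genes. In TPM, which has no such scaling, it held for all 9 members and for 38.5% of all genes. The 95% intervals of the log2 change included 0 for 7 of the 9 members, all but DCL3 and DCL4.

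DCL4 and DCL3 had the lowest unadjusted p of the members. DCL4, known for making the phased small RNAs of the trans-acting pathway, stood at 67.8 and 64.3 CPM in MT against 45.13 and 45.10 CPM in 156OE. The 156OE values were close to each other and apart from MT. The fitted level in 156OE was 0.683 times that in MT, which is -0.55 ± 0.11 as a log2 change (SE; 95% interval -0.83 to -0.27; edgeR adjusted p = 0.283, unadjusted p = 0.00385). DCL3, which serves DNA methylation, had 78.4 and 86.8 CPM in MT and 57.0 and 59.5 CPM in 156OE. Here too the groups did not overlap, and the log2 change was -0.51 ± 0.12 (SE; 95% interval -0.81 to -0.21; edgeR adjusted p = 0.31, unadjusted p = 0.00712). Behind the values of 156OE replicate 2 stood 69 reads for DCL4 and 91 for DCL3, with exact 95% Poisson intervals of 35.1 to 57.1 and 47.9 to 73.0 CPM, which cover counting error only.

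Without 156OE replicate 2, edgeR called DCL4 (log2 change -0.55, adjusted p = 0.0204) and DCL3 (-0.53, adjusted p = 0.0212) lower, 2 of the 9 members, against 3.11% of all genes. Without 156OE replicate 1 the changes were -0.55 and -0.47 and neither was called (adjusted p = 0.0619 and 0.0906). Each of these fits rests on a lone 156OE library that is assumed to vary as the MT pair does. Without MT replicate 1 or without MT replicate 2, edgeR called 0 members and 0% of all genes, with lowest adjusted p values over all genes of 0.984 and 0.99964, so these fits say nothing about the members. The log2 changes there were -0.51 and -0.59 for DCL4 and -0.58 and -0.43 for DCL3.

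The AGO1 pair, the main effectors of microRNAs, had like proportions in both genotypes. AGO1b had 1016 and 1035 CPM in MT and 888 and 886 CPM in 156OE, and the log2 change was -0.21 ± 0.13 (SE; 95% interval -0.54 to 0.12; edgeR adjusted p = 0.56). For AGO1a, the values were 612 and 611 CPM in MT and 522 and 563 CPM in 156OE, and the log2 change was -0.17 ± 0.12 (SE; 95% interval -0.48 to 0.13; edgeR adjusted p = 0.599). Both 156OE libraries were below MT for each gene, by an amount that did not pass the test. AGO1b made up 72.7% and 73.1% of the summed AGO1a and AGO1b TPM in MT and 73.2% and 71.6% in 156OE, so the 156OE values of this share spanned those of MT.

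AGO4a and AGO4b, which bind small interfering RNAs of the DNA methylation pathway, differed in how evenly the libraries behaved. AGO4a had 1341 and 1454 CPM in MT and 1227 and 1309 CPM in 156OE. The groups were separated by less than the gap within either, and the log2 change was -0.14 ± 0.15 (SE; 95% interval -0.51 to 0.23; edgeR adjusted p = 0.727). AGO4b had 592 and 639 CPM in MT, against 521 CPM in replicate 1 of 156OE and 454 CPM in its replicate 2, and the log2 change was -0.33 ± 0.13 (SE; 95% interval -0.68 to 0.01; edgeR adjusted p = 0.446). AGO4a contributed 68.4% and 68.5% of the pair's TPM in MT, 69.3% in 156OE replicate 1 and 73.3% in replicate 2, and the excess in 156OE rests mostly on replicate 2.

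The AGO10 types, related to the Arabidopsis meristem gene, were unequal in how far the 156OE libraries lay apart. Solyc09g082830 had 460 and 511 CPM in MT, against 420 CPM in replicate 1 of 156OE and 371 CPM in its replicate 2, and the log2 change was -0.29 ± 0.13 (SE; 95% interval -0.63 to 0.04; edgeR adjusted p = 0.472). Its gap within 156OE was no larger than that within MT in CPM. In TPM it was larger, at 137 and 104 in 156OE against 158 and 177 in MT. Solyc12g006790 had 78.1 and 83.6 CPM in MT, against 81.4 CPM in replicate 1 of 156OE and 52.9 CPM in its replicate 2 (81 reads, exact 95% Poisson interval 42.0 to 65.8 CPM), and its log2 change was -0.24 ± 0.21 (SE; edgeR adjusted p = 0.679). Replicate 1 thus lay between the MT values for Solyc12g006790, and replicate 2 alone was low. Leaving out 156OE replicate 2 brought its log2 change to 0.01, and leaving out replicate 1 to -0.61. Solyc09g082830 made up 83.0% and 83.5% of the TPM of both AGO10 types in MT, and 81.0% and 85.3% in 156OE.

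AGO7, the miR390 partner in Arabidopsis, had 39.2 and 40.6 CPM in MT, against 37.5 CPM in replicate 1 of 156OE and 30.1 CPM in its replicate 2 (46 reads, exact 95% Poisson interval 22.01 to 40.1 CPM). The interval of replicate 2 covers MT replicate 1 and ends just under MT replicate 2. The log2 change was -0.21 ± 0.15 (SE; 95% interval -0.60 to 0.17; edgeR adjusted p = 0.605), and it moved from -0.09 without 156OE replicate 2 to -0.41 without 156OE replicate 1.

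Without 156OE replicate 1, 3 of the 9 members were called lower in edgeR, against 3.89% of all genes. These were AGO4b (log2 change -0.44, adjusted p = 0.0057), Solyc09g082830 (-0.39, adjusted p = 0.0214) and Solyc12g006790 (-0.61, adjusted p = 0.0272). They are other members than the DCL3 and DCL4 called without 156OE replicate 2.

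Taken as a pool, the 7 Argonautes summed to 1390 and 1484 TPM in MT and to 1184 and 1003 TPM in 156OE. DCL3 with DCL4 summed to 34.4 and 36.0 TPM against 22.9 and 20.3 TPM. In TPM, which is not scaled by TMM, 38.5% of all tested genes had both 156OE values below both MT values. The ratio of the Argonaute sum to that of DCL3 and DCL4 does not depend on the scaling between libraries. It was 40.4 and 41.2 in MT and 51.6 and 49.5 in 156OE, without overlap. It was computed after the values were seen and not tested. DCL1 and the DCL2 types are not in it. The DCL2 type Solyc06g048960 had 26.9 and 29.1 TPM in MT and 19.8 and 21.8 TPM in 156OE. Another DCL2 type, Solyc11g008540, had 28.2 and 31.4 TPM against 36.2 and 27.4 TPM. Both of these DCL2 types had more TPM than DCL3 or DCL4 in every library. With them added to the DCL3 and DCL4 sum, the ratio is no longer higher in 156OE. The higher ratio therefore holds for DCL3 and DCL4 only, not for the Dicer-like genes as a whole. Within the Argonaute pool, AGO4a held 33.9% and 34.6% in MT and 34.6% and 37.5% in 156OE, AGO1b 26.0% and 24.98% against 25.4% and 25.7%, and AGO7 1.04% and 1.02% against 1.11% and 0.905%. The largest difference in mean share between genotypes among the 7 was that of AGO4a, at 34.2% ± 0.541 in MT and 36.0% ± 2.03 in 156OE (SD, n = 2), and it was within the spread of the 156OE pair. AGO4b held 15.6% and 15.9% in MT and 15.4% and 13.6% in 156OE. Those shares did not overlap, mostly through 156OE replicate 2, and were not tested.

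**Figure D2:**
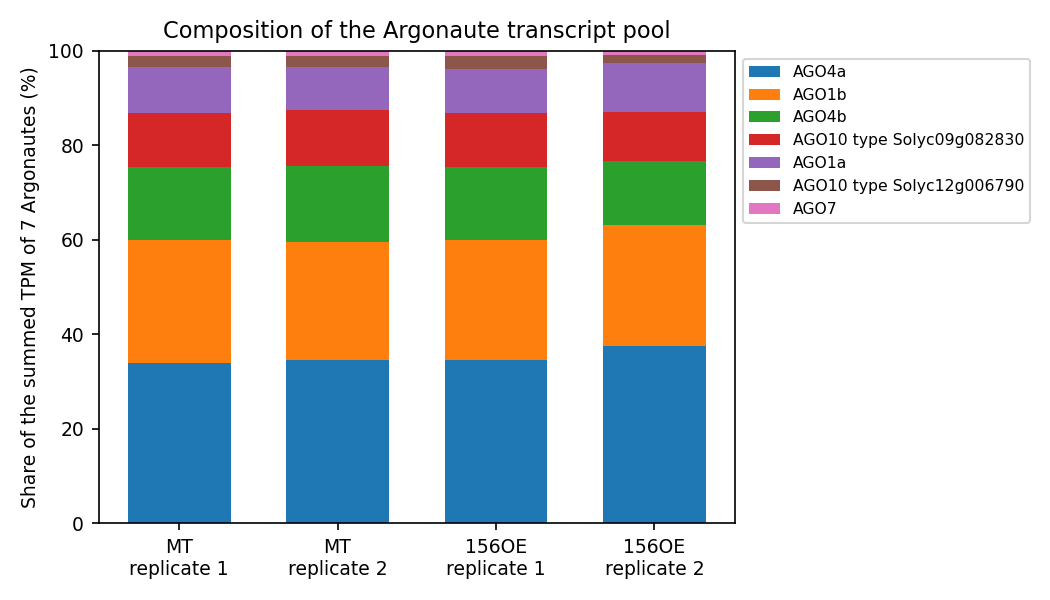
Stacked bars give the share (%) of each of 7 Argonaute genes in their summed TPM, 1 bar per library. The bars of the 4 libraries are alike, with AGO4a at 33.9% and 34.6% in MT and 34.6% and 37.5% in 156OE.

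Tissue markers did not behave alike in the 156OE libraries. Relative to the MT mean in CPM, the petal and stamen identity gene TAP3 (Solyc04g081000) was at 2.56 times in 156OE replicate 1 and at 0.263 times in replicate 2. The others of its list were at 1.46 and 0.450 times (Solyc08g067230) and at 1.43 and 1.05 times (TM6, Solyc02g084630), so TM6 was not low in replicate 2. The stamen and carpel identity genes TAG1 (Solyc02g071730) and TAGL1 (Solyc07g055920) were at 1.99 and 0.293 times and at 1.76 and 0.606 times. Over the 3 petal and stamen markers the summed level was 101 and 104 TPM in MT and 159 and 59.7 TPM in 156OE, and over the 2 stamen and carpel markers 14.3 and 15.5 TPM against 27.8 and 4.19 TPM. The Rubisco small subunit gene RBCS3 (Solyc02g085950), a marker of green tissue, was at 213 and 209 TPM in MT and 354 and 693 TPM in 156OE. The 3 shoot meristem markers summed to 146 and 156 TPM in MT and 180 and 137 TPM in 156OE, and the dividing cell markers CDKB1 and CDKB2 to 414 and 405 against 377 and 393 TPM. In CPM, by contrast, each marker of these lists was above the MT mean in replicate 2. The ratios in replicates 1 and 2 of 156OE were 0.827 and 1.041 for CDKB1 and 1.004 and 1.212 for CDKB2. For the meristem markers they were 0.876 and 1.018 (WUS), 1.298 and 1.196 (CLV3), and 1.303 and 1.118 (Solyc02g081120). No marker was at 0, and for 1 petal and stamen marker and 1 meristem marker the name could not be checked. The part of tissue content in the members' values was not tested.

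The members' own ratios to the MT mean were 0.683 in both 156OE libraries for DCL4, 0.866 and 0.863 for AGO1b, and 0.691 and 0.720 for DCL3. Solyc12g006790 (1.01 and 0.655 times), AGO7 (0.940 and 0.754 times), AGO4b (0.846 and 0.738 times) and Solyc09g082830 (0.866 and 0.764 times) had lower ratios in replicate 2. AGO1a (0.854 and 0.920 times) and AGO4a (0.878 and 0.937 times) were slightly higher in replicate 2. Over all tested genes the median ratio was 0.999 in replicate 1 and 0.987 in replicate 2, and the quartiles were 0.871 and 1.14 in replicate 1 and, wider apart, 0.786 and 1.26 in replicate 2. Ranked among all genes, AGO4b stood at the 21.3 and 20.1 percentile of these ratios and Solyc09g082830 at the 24.2 and 22.6 percentile. DCL4 stood at the 7.28 and 15.7 percentile, DCL3 at the 7.73 and 18.5 percentile and Solyc12g006790 at the 51.7 and 13.8 percentile. Nearer the middle in 1 or both libraries were AGO4a (26.1 and 43.7), AGO1a (22.4 and 41.6), AGO1b (24.2 and 34.1) and AGO7 (37.4 and 21.5).

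**Figure D3:**
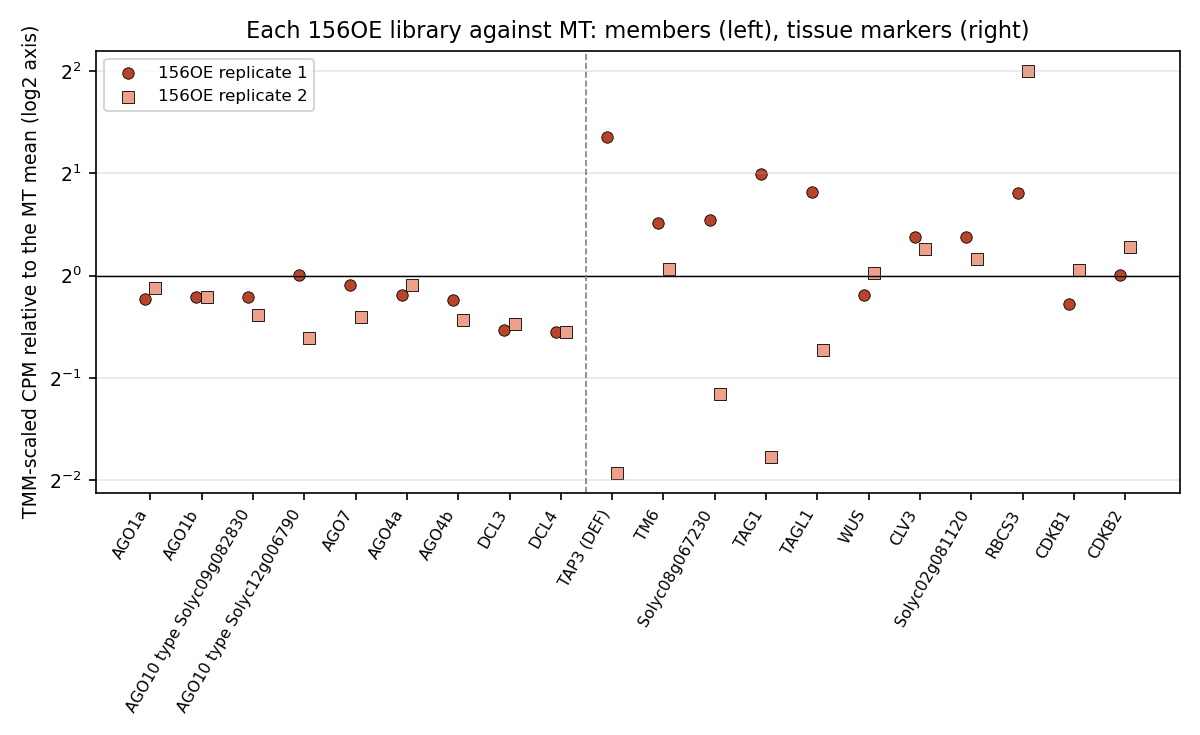
TMM-scaled CPM of each 156OE library divided by the MT mean (log2 axis), for the 9 members on the left and 11 tissue markers on the right, circles for replicate 1 and squares for replicate 2. DCL4 is at 0.683 in both libraries, Solyc12g006790 at 1.01 and 0.655, TAP3 at 2.56 and 0.263, and TM6 at 1.43 and 1.05.

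The wider small RNA pathway was described from recalled gene IDs. Of 30 IDs of other Argonautes, other Dicers, RNA-dependent RNA polymerases with SGS3, and DNA methylation genes, 26 matched a transcript, 17 passed the check of their name and 15 of those passed the low-count filter. In edgeR 0 of the 15 were called, with 3 lower at an unadjusted p under 0.05, against 5.11% of all genes, and 0 higher. DESeq2 called 2 lower, AGO5 and RDRP, against 0.294% of all genes. The log2 change was below 0 in 11 of the 15, against 48.5% of all genes, with a median of -0.27. In 9 of the 15 each 156OE value was under each MT value in CPM, against 23.8% of all genes.

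AGO5 (Solyc06g074730), an Argonaute known from Arabidopsis for its expression in germline tissue, had 56.4 and 54.0 CPM in MT and 27.0 and 26.8 CPM in 156OE. The value of 156OE replicate 2 rested on 41 reads, so the closeness of the 156OE pair is subject to counting error. The groups were far apart and each pair was close, and the log2 change was -1.04 ± 0.12 (SE; edgeR adjusted p = 0.21, DESeq2 adjusted p = 0.00385). It was called lower in edgeR without 156OE replicate 1 (-1.04) and without 156OE replicate 2 (-1.03), fits that called 3.89% and 3.11% of all genes lower, and without the low-count filter (-1.05, adjusted p = 0.0342). It was not called in edgeR with the replicate block (adjusted p = 0.434), without MT replicate 1 (0.984) or without MT replicate 2 (0.99964), nor in limma on log2(TPM + 1) (0.385). RDRP (Solyc05g007510), an RNA-dependent RNA polymerase recalled as the RDR1 type known for antiviral defence, had 189 and 228 CPM in MT and 81.8 and 129 CPM in 156OE, and the log2 change was -1.01 ± 0.24 (SE; edgeR adjusted p = 0.325, DESeq2 adjusted p = 0.0239). Dropping replicate 1 of 156OE gave a log2 change of -0.69 and dropping its replicate 2 gave -1.35, and edgeR called RDRP lower in both fits. RDRP was not called in edgeR with the low-count filter off (adjusted p = 0.129) or with the replicate block (0.469). Nor was it called in limma on log2(TPM + 1) (0.393). Dropping replicate 1 of MT gave -1.12 and dropping its replicate 2 gave -0.85, again with no call. AGO6 (Solyc07g049500), of the AGO4 clade, had 70.8 and 81.4 CPM in MT and 59.1 and 48.4 CPM in 156OE and was the remaining gene under an unadjusted p of 0.05 (edgeR adjusted p = 0.379); without 156OE replicate 1 it was called lower (-0.65, adjusted p = 0.0249).

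Not all genes of the pathway were lower. The AGO2 or AGO3 type Solyc02g069260, the most abundant of the other Argonautes at 59.4 and 61.1 TPM in MT, had 183 and 187 CPM in MT and 169 and 249 CPM in 156OE, and was called higher in edgeR only in the fit without 156OE replicate 1 (0.43, adjusted p = 0.0214). The DCL2 type Solyc11g008540, of the Dicer class known for antiviral small RNAs, had 99.1 and 110 CPM in MT and 134 and 118 CPM in 156OE, with both 156OE libraries above MT (log2 change 0.27 ± 0.13 (SE), edgeR adjusted p = 0.476). In the DNA methylation list, CMT3 (Solyc01g006100), a methyltransferase of non-CG sites, had 158 and 189 CPM in MT and 134 and 154 CPM in 156OE (log2 change -0.27 ± 0.15 (SE), edgeR adjusted p = 0.523).

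**Figure D4:**
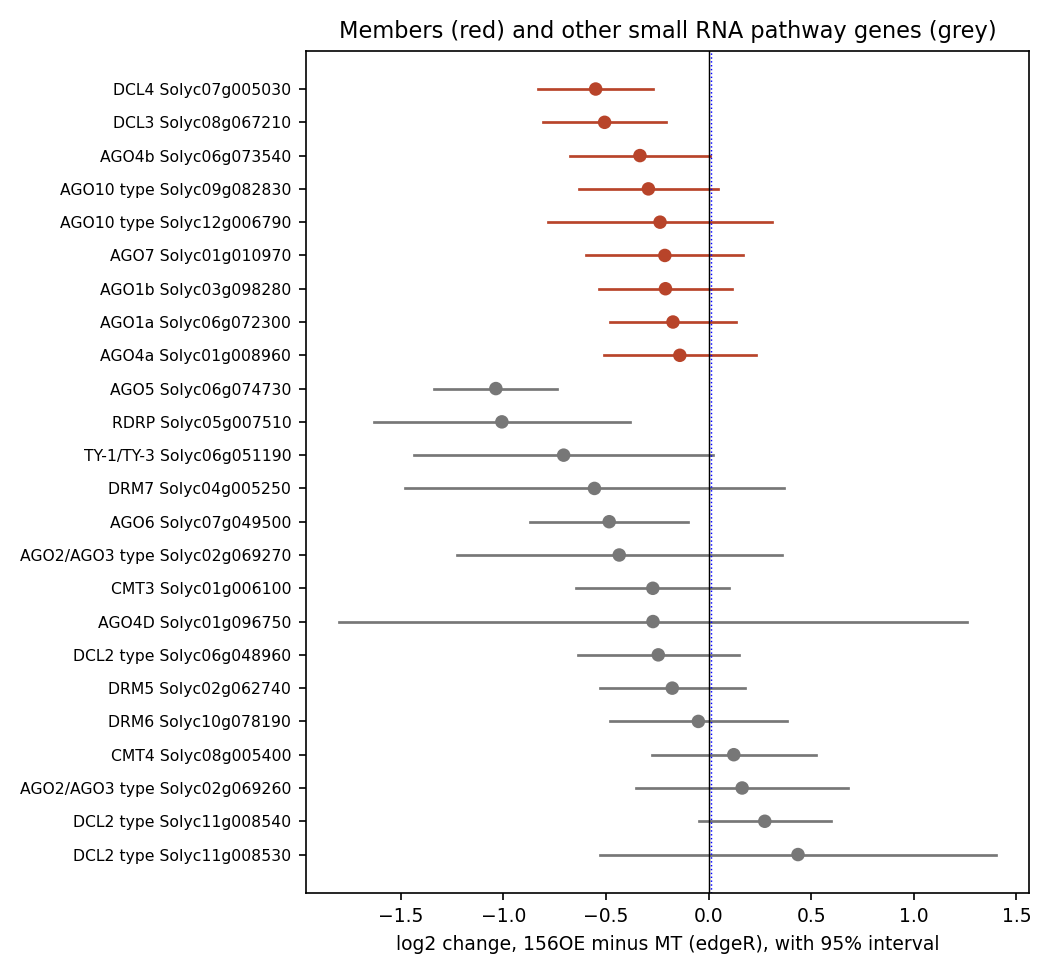
log2 change (156OE minus MT) from edgeR with its 95% interval for the 9 members in red and 15 other small RNA pathway genes in grey; the solid line is 0 and the dotted line the median of all genes at 0.01. All 9 members lie below 0, against 48.5% of all genes, from -0.55 for DCL4 to -0.14 for AGO4a. AGO5 has the lowest value at -1.04.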

How the data were processed

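RNA sequencing libraries of 2 genotypes, 2 per genotype, were analysed. Per the submitters' processing notes, Trimmomatic, HISAT2, Picard, SAMtools and Salmon were used; no versions, annotation or genome build are given in the sources used here. The authors deposited estimated counts per transcript, with no normalization, and TPM values, which sum to 1000000 in each library, 1 transcript per gene ID. Estimated counts of 9, 9, 9 and 6 of the 9 members were not whole, so part of their reads was assigned by estimation. Reads shared between paralogs, if any, could be split this way, which was not tested.

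Estimated counts were rounded and tested with edgeR 4.0.16 (TMM, filterByExpr, two-sided quasi-likelihood test, genotype as the only term) in R 4.3.3, adjusted over 18385 genes at 0.05; the SE was obtained from the unshrunk log2 change and its F value. In all, 13 alternative settings were run, among them DESeq2 1.42.0 and limma 3.58.1 on log2(TPM + 1). The procedure was also run on simulated data, for which no result is given here. Its power to detect changes as small as those of the members, at the spread of these libraries, was not tested. With 2 against 2 libraries no exact permutation test of a single value can reach 0.05, so none was run.

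Names were checked against RefSeq gene positions (assembly SLM_r2.1): a name was accepted on the same chromosome within 0.03 of its relative gene order. The named genes were all members and, of each pathway list, any gene called, the lowest p and the highest TPM. AGO6 was named after its value was seen. Also outside this rule, Solyc06g048960 was named beside the ratio of sums, as were pathway genes whose direction turned between settings. Members and lists were chosen with earlier results of these data known. No sequences are shown, and none were used here.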

Additional observations from a re-analysis of the deposited data

How the results depend on the processing

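The count of members called was 0 in all settings that kept the 4 libraries and ran from 0 to 3 when 1 library was left out. For the pathway list the count was 0, and it was 1 without the low-count filter, 2 in DESeq2 and 0 to 6 when 1 library was left out. Over all genes edgeR called 1 gene; the count was 85 without the low-count filter, 199 in DESeq2, 0 with limma on log2(TPM + 1), 0 with limma on log2(TPM + 0.1), and 0 to 2453 when 1 library was left out, the highest being without 156OE replicate 1 and 1322 being found without 156OE replicate 2. With the replicate number as a block, 0 members, 0 pathway genes and 0 genes in all were called; same-numbered libraries did not deviate together (correlation -0.264), and the labels do not say that a number marks a shared plant or day. A crossed block, chosen after seeing the data, also called 0 members, 0 pathway genes and 0 of all genes.

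All 9 members had a log2 change below 0 in every setting run, except Solyc12g006790 without 156OE replicate 2; over the fits without 1 library it ran from -0.61 to 0.0102. In limma on log2(TPM + 1) the median of all genes was -0.17 and that of the members -0.47, so the members were lower than the median of all genes by -0.30, against -0.25 in edgeR. Of the pathway genes, the direction turned in limma on both TPM scales for Solyc02g069260 (-0.0374 and -0.0381) and CMT4 (Solyc08g005400; -0.0507 and -0.0526). When 1 library was left out it turned for Solyc02g069260 (-0.13 to 0.43), AGO4D (Solyc01g096750; -2.54 to 0.23), the DCL2 type Solyc11g008530 (-0.35 to 0.73), DRM6 (Solyc10g078190; -0.19 to 0.0904) and CMT4 (-0.0171 to 0.28); the cause was not tested. Shares from estimated reads per full length stayed within 1 SD for 20 of 22 values; AGO1b was then 72.5% of the AGO1 pair in MT and Solyc12g006790 2.32% of the Argonautes in MT. Fits that lack an MT library take the spread from the 156OE pair, and depth limits AGO7, DCL3, DCL4 and Solyc12g006790, with 46 to 91 reads in 156OE replicate 2. Of the pathway genes, AGO5 (41 reads) and AGO6 (74 reads) were limited likewise in that library.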
